A study of Mus musculus with 9 samples.

Results

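The ADAM genes (a disintegrin and metalloprotease) encode membrane-anchored proteins of the cell surface. They were examined here in mouse testis RNA recovered with an antibody against N4-acetylcytidine (ac4C), a cytidine modification written by NAT10. Members were the protein_coding genes whose symbol starts with Adam and a digit in the GENCODE vM21 annotation, which leaves out the secreted ADAMTS proteases. This gave 33 of 55401 genes in the count table, and of 21897 protein_coding genes. Poly(A) RNA came from testes of wild-type male mice, which the methods give as the ICR stock, with the age not given in the sources used here. The input group was RNA without antibody (n = 3), the IgG group was RNA retained by beads with a control rabbit immunoglobulin (n = 3), and the acRIP group was RNA retained by beads with the anti-ac4C antibody (n = 3). By the methods, an in vitro transcribed β-globin RNA with ac4C was mixed into the poly(A) RNA before precipitation, and all libraries were primed with oligo(dT) and amplified. The libraries are of whole testis, so the cell type behind a count is not known, and the sources do not say whether a replicate was a separate mouse, a separate precipitation or a repeated library, so p-values measure the spread between these libraries only.

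An ADAM protein is made with a prodomain, a metalloprotease-like domain, a disintegrin domain and a membrane anchor. Catalytic members such as ADAM10 and ADAM17 cut other proteins off the cell surface, which is called shedding, and they need a zinc ion held by a short signature in the protease domain. Many other members are made almost only in male germ cells, where they are processed on the way to the sperm surface. ADAM2 (fertilin β), ADAM3 (cyritestin) and ADAM1 (fertilin α) of this kind are known for sperm migration into the oviduct and binding to the egg coat.

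The 33 members fell into 5 groups by known role. There were 10 sperm surface genes of the fertilin and cyritestin type, 10 testis genes of the testase type, 8 widely expressed sheddases (Adam8, Adam9, Adam10, Adam12, Adam15, Adam17, Adam19 and Adam33), 3 genes that bind LGI proteins or act in neural adhesion (Adam11, Adam22 and Adam23) and 2 genes known from the epididymis (Adam7 and Adam28). The chromosomal arrangement followed these roles in part. Of the 33 genes, 13 lie on mouse chromosome 8 (mm10). Adam18, Adam3, Adam5, Adam32 and the sheddase Adam9 follow each other at chr8:24602246-25016927, Adam24, Adam25, Adam20 and Adam39 at chr8:40675077-40827037, and Adam26b, Adam26a and Adam34 at chr8:43519762-43710049. A single coding exon was found in 15 members, all 15 of them in the sperm surface and testase groups.

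The zinc signature of the protease domain was found in every sheddase and in none of the 4 members with the highest level in testis. A histidine, a glutamate, a further histidine and a glycine in fixed spacing, closed by another histidine, make up the signature. A search of the translated coding sequence of each gene (GENCODE vM21 models on GRCm38) found it complete in 20 members and not in 13. It was found in all 8 sheddases, in 9 of 10 testase genes and in only Adam1a and Adam1b of the sperm surface genes, 8 of which lacked it. The coding strand of the first 10 codons of the signature is printed for Adam10 (chr9:70678997-70780229), Adam17 (chr12:21323509-21373632) and Adam8 (chr7:139978932-139992562) of the sheddases and for Adam1a (chr5:121518576-121545482). The aligned stretch of the 4 genes with the highest level in testis follows, where Adam2 lies at chr14:66027329-66077733 and the others in the first block on chromosome 8. Capitals mark the codons for the first histidine, the glutamate, the next histidine and the glycine, where the gene has them.

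Adam10: CATGAAgttggaCATaactttGGAtctcca

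Adam17: CATGAAttgggaCATaattttGGAgcagaa

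Adam8: CATGAGctgggcCACaacctgGGCatgagc

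Adam1a: CACGAGctcgggCACaacctgGGTatccag

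Adam5: cagctgctgagcattggtatgGGCttaact

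Adam3: cagttgctgggaattaacctgGGGttggca

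Adam2: cagctgctgagcctcagcatgGGGctagcg

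Adam32: caaatgctggggctcagtctgGGGatatcg

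In Adam5, Adam3, Adam2 and Adam32 the glycine codon alone was found of the 4 marked ones. Adam29 of the testase group had 3 of the 4. The same stretch also shows how alike the closest copies are, which bears on how their reads can be told apart.

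Adam26b: CATGAGatggggCATaacttgGGTatgaaa

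Adam26a: CACGAGatggggCATaacttcGGTatgaaa

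Adam20: CATGAGattggtCATaatctgGGTatggag

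Adam25: CATGAGatgggtCATaatctgGGTatggag

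Adam39: CATGAGattggtCATaatctgGGTatggag

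Over the whole coding sequence Adam25 and Adam39 were 96.3% identical, Adam6b and Adam6a 94.9% and Adam26b and Adam26a 94.8%. Adam1b and Adam1a were 86.0% identical. The authors counted uniquely mapped reads, so a read from a stretch without a difference between copies was dropped, and the levels of these copies are uncertain. Adam1a has a further limit, since 63.7% of its exon bases also lie in exons of other genes (Mapkapk5, Gm42878 and, on the opposite strand, Tmem116), and the use of strand in counting is not stated.

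Total counts on genes ranged from 22023925 to 31340090 in input, from 14647542 to 18786779 in IgG and from 16025779 to 18639134 in acRIP. Among low counts, between 1 and 20, an even number was found for 81.9% to 84.3% of genes in each library, so the number of independent fragments was smaller than the number of counts. Markers of spermatocytes, spermatids, Sertoli cells and Leydig cells were present in every group. Exceptions were the Sertoli markers Rhox5, with 0 counts in all 9 libraries, and Amh, with 0 to 22 in IgG and 2 to 6 in acRIP. Counts on ribosomal RNA-like and mitochondrial loci (Rn18s-rs5, the mitochondrial genes, Lars2 and Gm15564) took 1.31% to 1.33% of the total in input, 6.7% to 7.24% in IgG and 11.4% to 12.6% in acRIP.

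Levels are given as FPKM, counts scaled to the length of the gene's merged exons and to the library's total count, and errors of levels are SD over 3 libraries. In input, ADAM genes together took 7710 ± 324 of the total as CPM, counts scaled to the total alone. Most of this came from a few sperm surface genes. Adam5, Adam3, Adam2 and Adam32 made up between 70.7% and 71.7% of all ADAM counts in each of the 9 libraries, although their level differed between the groups.

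**Figure D1:**
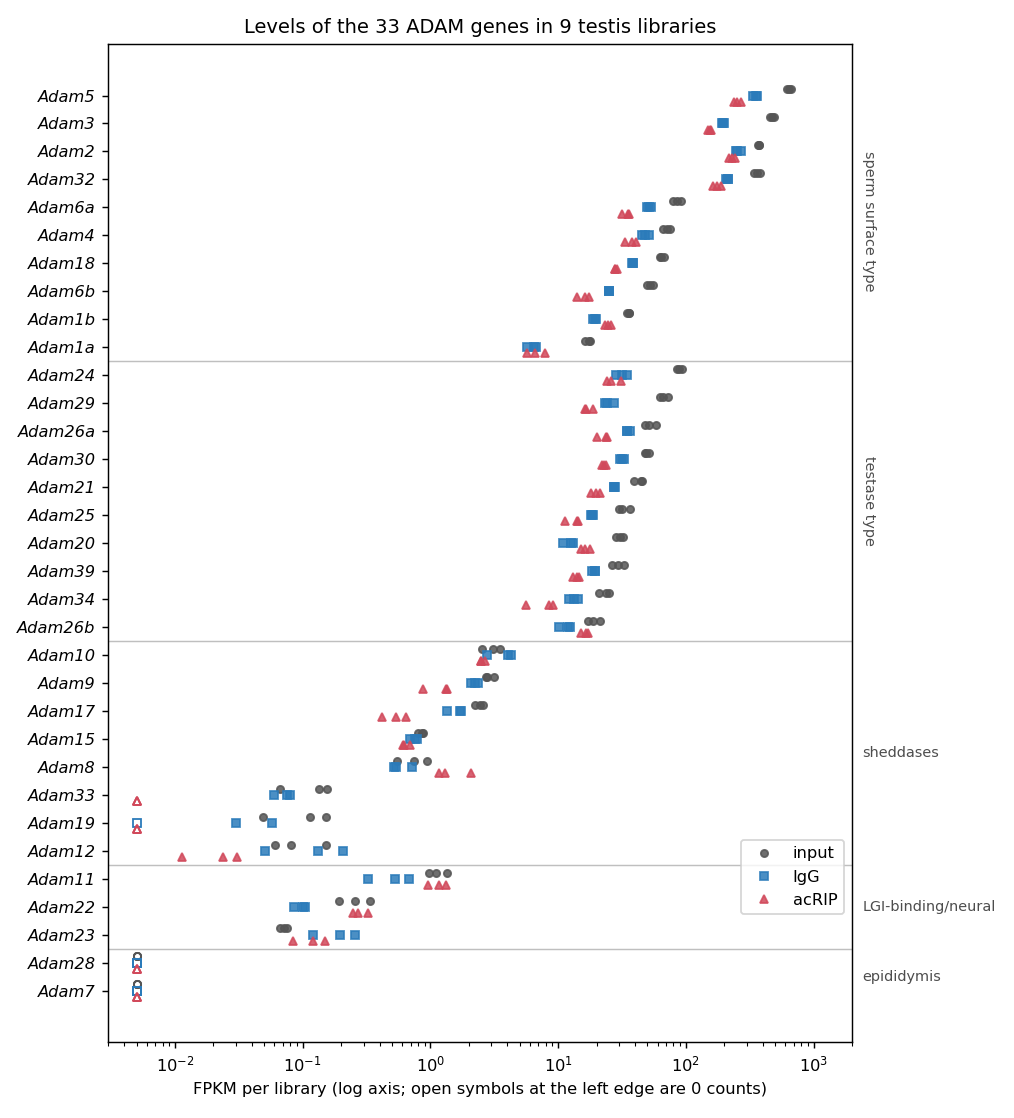
Level of each of the 33 ADAM genes in FPKM (log axis) in every input, IgG and acRIP library, by role and then by mean input level; open symbols at the left edge stand for 0 counts. The 20 sperm surface and testase genes lie above 10 FPKM in input on average and the other 13 below 5, and the input libraries lie to the right of both precipitated groups for all 20.

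Adam5 had the highest level, with 623, 639 and 666 FPKM in the input libraries. Adam3 followed with 452, 476 and 493 FPKM, without overlap with Adam5. Adam2 with 367, 377 and 376 FPKM and Adam32 with 344, 363 and 379 FPKM overlapped each other and lay below Adam3. A wide gap followed, to Adam24, the testase with the highest level, with 84.9, 89.0 and 93.0 FPKM. Adam6a came next with 78.9, 85.6 and 91.4 FPKM. Their ranges overlapped, although Adam24 was above Adam6a in each input library. The remaining sperm surface and testase genes ranged from Adam4 with 70.6 ± 4.22 FPKM down to Adam1a. Of the fertilin α pair, Adam1b had 36.1, 34.7 and 36.2 FPKM and Adam1a 16.3, 17.3 and 17.8 FPKM.

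The sheddases were far lower in this tissue. Adam10, which releases Notch receptors and cadherins, had 3.1, 2.53 and 3.49 FPKM in input, and Adam17, the protease that frees TNF and ligands of the EGF receptor, had 2.43, 2.23 and 2.58 FPKM. Adam9 lay between them with 2.88 ± 0.237 FPKM, and overlapped Adam10 but not Adam17. Adam11 had 1.15 ± 0.195 FPKM, Adam15 0.846 ± 0.0455 FPKM and Adam8 0.74 ± 0.195 FPKM. Adam22, Adam33, Adam19, Adam12 and Adam23 lay between 0.0709 and 0.263 FPKM on average. Adam7 and Adam28, the epididymal members, had 0 counts in all 9 libraries, which allows up to 3 fragments in a library by counting error alone, that is 3 counts, or 6 if both reads of a pair were counted.

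The first question was whether the antibody recovered ADAM transcripts beyond what beads with the control IgG recovered. Counts were compared with edgeR over the 22510 genes that passed its filter on low counts, and calls needed a Benjamini-Hochberg adjusted p under 0.05 with more than a 2-fold change. Of the 33 members, 29 were tested and 4 were not (Adam7, Adam28, Adam19 and Adam33). The filter keeps a gene that is high in only 1 of the groups, so the counts below are over those tested. None of the 20 sperm surface and testase genes was called in either direction between acRIP and IgG. Among all genes tested, 11.5% were called higher and 20.9% lower in this comparison, and among protein_coding genes 8.99% and 19.7%. Changes smaller than 2-fold were nonetheless resolved. At an adjusted p under 0.05 and any fold, 16 of the 20 were lower in acRIP and 3 were higher, beside 37.7% and 26.4% of all genes tested. All acRIP libraries lay below all IgG libraries for 15 of the 20, an order that 40.2% of all genes tested showed. The log2 fold changes of the 20 ranged from -0.74 (Adam34) to 0.53 (Adam26b), with a median of -0.41, where the median of all genes tested was -0.09.

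Adam3, whose protein is needed by sperm to enter the oviduct, had 192, 198 and 196 FPKM in the IgG libraries and 154, 150 and 157 FPKM in the acRIP libraries. Each acRIP library was below each IgG library, and the log2 fold change was -0.30 ± 0.03 (SE, adjusted p = 2.38e-09). Adam5 had 338, 353 and 358 FPKM in IgG and 250, 238 and 271 FPKM in acRIP, a log2 fold change of -0.42 ± 0.04 (adjusted p = 1.18e-12). Adam1a was the one gene of the 20 that did not pass the adjusted p here. It had 5.66, 6.77 and 6.47 FPKM in IgG and 5.7, 6.64 and 7.85 FPKM in acRIP, which overlapped (log2 fold change 0.14 ± 0.08, adjusted p = 0.129). Adam2, the β subunit of fertilin, had 251, 248 and 269 FPKM in IgG and 228, 216 and 243 FPKM in acRIP, a log2 fold change of -0.11 ± 0.04 (adjusted p = 0.0075). Adam2 still had every acRIP library below every IgG library, and so did Adam5, Adam32 and Adam6a. Adam32 had 208, 213 and 215 FPKM in IgG against 175, 162 and 190 FPKM in acRIP (log2 fold change -0.22 ± 0.04, adjusted p = 9.25e-06). Adam6a had 49.4, 51.4 and 53.3 FPKM in IgG and 35.1, 31.8 and 35.8 FPKM in acRIP (log2 fold change -0.54 ± 0.06, adjusted p = 1.88e-10). Adam24 overlapped between the groups, with 28.5, 31.7 and 34.5 FPKM in IgG and 25.9, 24.3 and 31.1 FPKM in acRIP (log2 fold change -0.18 ± 0.07, adjusted p = 0.0258).

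A comparison with input gave a different picture for the same genes. All 20 sperm surface and testase genes had every acRIP library below every input library, an order that 44.5% of all genes tested showed, while the opposite order held for 0 of the 20 and for 30.8% of all genes tested. At any fold, 19 of the 20 passed the adjusted p downwards, beside 40.3% of all genes tested. Of the 20, 14 were called lower, 70.0%, while 22.8% of all genes tested (21.7% of protein_coding genes) were called lower and 17.7% higher. These 14 were Adam3, Adam5, Adam18, Adam6a, Adam6b and Adam1a of the sperm surface genes, and Adam24, Adam29, Adam26a, Adam30, Adam21, Adam25, Adam39 and Adam34 of the testases. Adam39, at -1.01, lost its call under DESeq2 and without input replicate 3 (-0.93) or acRIP replicate 2 (-0.96), and Adam30, at -1.03, without input replicate 3. Adam3 fell from 474 ± 20.8 FPKM in input to 154 ± 3.28 FPKM in acRIP, and its log2 fold change was -1.54 ± 0.03 (adjusted p = 2.4e-31). Adam24 fell from 89 ± 4.04 to 27.1 ± 3.56 FPKM, with a log2 fold change of -1.64 ± 0.07 (adjusted p = 2.9e-20). The steepest of these was Adam29, the testase with an incomplete zinc signature, from 67.5 ± 5.23 to 17.1 ± 1.33 FPKM (log2 fold change -1.90 ± 0.07). Adam2 was much less reduced, from 373 ± 5.22 to 229 ± 13.3 FPKM (log2 fold change -0.63 ± 0.04, adjusted p = 8.14e-18), and stayed within 2-fold, as did Adam32, Adam4, Adam1b, Adam20 and Adam26b.

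Lower levels than in input were also found in the IgG libraries, which had no anti-ac4C antibody. Every one of the 20 genes had all IgG libraries below all input libraries, an order found for 31.4% of all genes tested, with 27.8% in the opposite order, and all 20 passed the adjusted p at some fold, beside 26.1% of all genes tested that passed in that direction. At over 2-fold, 6 were called lower in IgG (Adam3, Adam24, Adam29, Adam6b, Adam20 and Adam1a), where 7.19% of all genes tested (6.22% of protein_coding genes) were called lower and 13.4% higher. The median log2 fold change of the 20 was -0.76 in IgG against input and -1.12 in acRIP against input. The comparisons with input share the same input libraries, so they are not separate evidence. As a share of the library, the whole family went from 7388, 7707 and 8035 CPM in input to 4096, 4197 and 4306 in IgG and 3338, 3152 and 3545 in acRIP. The acRIP mean was 43.4% and the IgG mean 54.5% of the input mean.

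**Figure D2:**
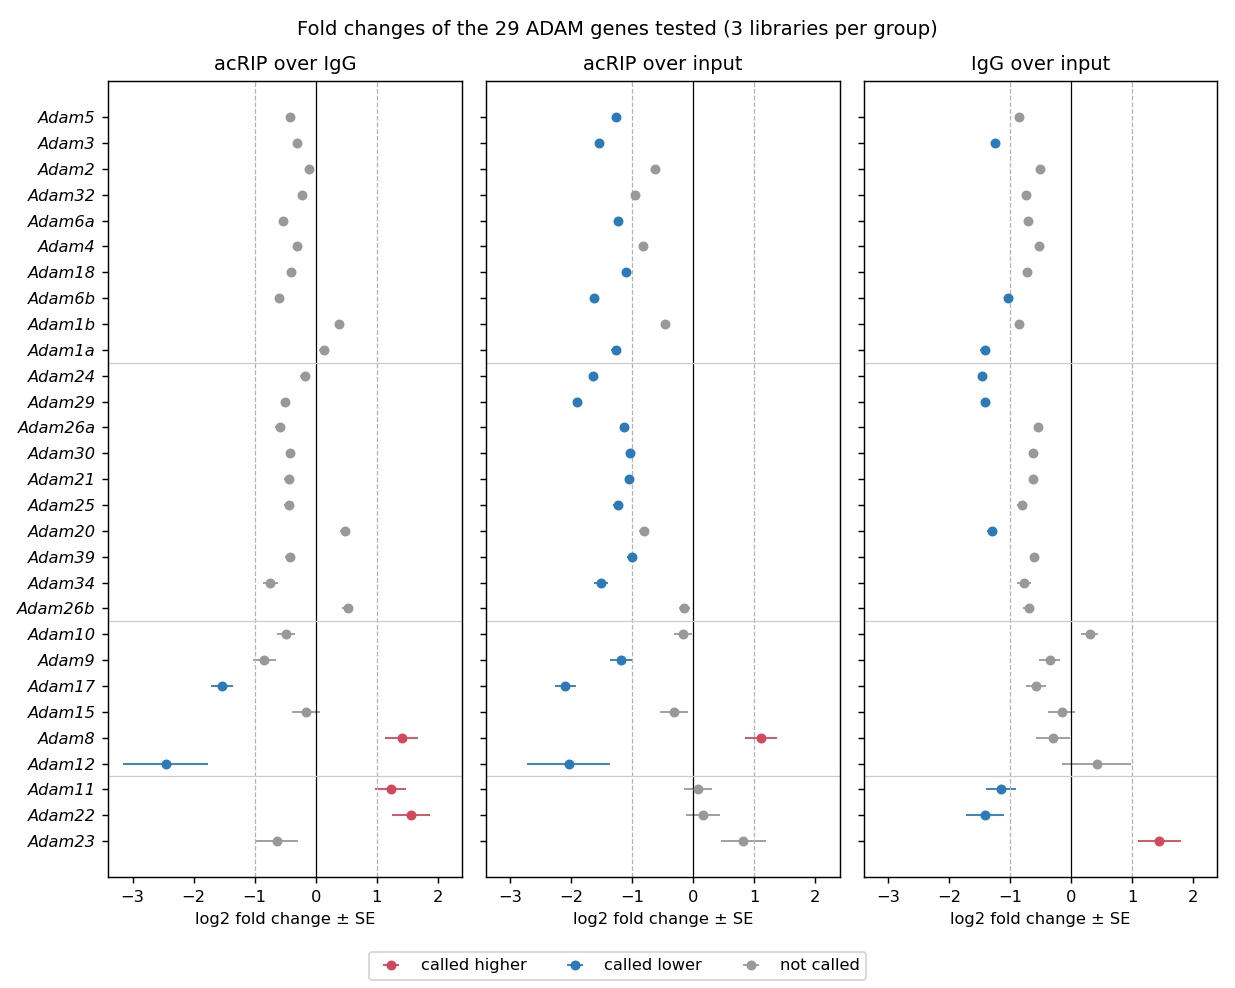
Log2 fold change with its standard error from edgeR for the 29 ADAM genes tested, in acRIP over IgG, acRIP over input and IgG over input (3 libraries per group), with dashed lines at a 2-fold change. The 20 upper genes, of the sperm surface and testase groups, lie within the dashed lines in the left panel and below 0 in the other panels, while Adam8, Adam11, Adam22, Adam17 and Adam12 stand outside the lines in the left panel.

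Marker genes of the stages in which sperm ADAM genes are made moved as follows. Round spermatid markers, 7 genes, had a summed level of 1630 to 1670 FPKM in input, 1150 to 1160 in IgG and 1100 to 1110 in acRIP. Of these 7, 1 was called lower in acRIP than in input, beside 22.8% of all genes tested. At an adjusted p under 0.05 and any fold, 6 were lower in acRIP than in input and 7 in IgG, beside 40.3% and 26.1% of all genes tested. Spermatocyte markers, 8 genes, had 477 to 484 FPKM in input, 399 to 417 in IgG and 312 to 331 in acRIP, also with 1 called lower than in input (Spo11). The list was not uniform, since Sycp1 (log2 fold change 0.57 ± 0.05, adjusted p = 2.68e-12) and Mlh3 (0.70 ± 0.10, adjusted p = 9.59e-08) were higher in acRIP than in input, under 2-fold. Elongating spermatid markers, 7 genes, summed to 27200 to 31000 FPKM in input, 31800 to 32900 in IgG and 32500 to 35100 in acRIP, a sum made up mostly of Prm1, Prm2, Tnp1 and Tnp2. Against input, Odf1 and Gapdhs of this list were called higher in acRIP and Akap4, from 1050 ± 26.1 to 379 ± 12 FPKM, was called lower (log2 fold change -1.39 ± 0.03). By the methods, beads were added to poly(A) RNA already extracted, so these are shifts between fractions of RNA and not counts of cells. The part of these shifts in the ADAM values was not tested.

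A list of 13 genes whose proteins help ADAM3 mature was set beside the members. Among them are calmegin (Clgn), calsperin (Calr3) and Pdilt, which act in the endoplasmic reticulum, and Ace and Tex101 of the germ cell surface. By edgeR 0 were called between acRIP and IgG in either direction, beside 11.5% of all genes tested called higher and 20.9% lower. At a smaller fold 11 passed an adjusted p of 0.05. Of these, 4 were higher and 7 lower in acRIP, beside 26.4% and 37.7% of all genes tested at any fold. Ace was the 1 gene called lower in acRIP than in input, beside 22.8% of all genes tested (log2 fold change -1.09 ± 0.05, adjusted p = 1.28e-22). Their median log2 fold change was -0.43 in acRIP against input, where the ADAM members had -1.06 and all genes tested -0.10, a difference that was not tested. Clgn had 168 ± 1.5 FPKM in input, 125 ± 1.58 in IgG and 96.8 ± 1.6 in acRIP, and Cmtm2b had 1230 ± 22.9, 1120 ± 13.1 and 1120 ± 18.3 FPKM.

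Near-identical copies did not all go the same way. In 3 of the 20 genes each acRIP library was above each IgG library, beside 25.4% of all genes tested. Adam1b had 19.9, 18.9 and 19.3 FPKM in IgG and 24.4, 23.1 and 26.1 FPKM in acRIP (log2 fold change 0.39 ± 0.06, adjusted p = 9.95e-07). Adam20 and Adam26b are described for their difference from their neighbours, which was seen first. Adam20 had 10.9, 12.5 and 13.0 FPKM in IgG and 17.7, 15.2 and 16.3 FPKM in acRIP (log2 fold change 0.48 ± 0.08, adjusted p = 5.43e-06). Adam26b had 10.1, 12.4 and 12.0 FPKM in IgG and 17.0, 15.1 and 16.4 FPKM in acRIP (log2 fold change 0.53 ± 0.09, adjusted p = 8.04e-06). Against input, Adam26b had a log2 fold change of -0.15 ± 0.09 (adjusted p = 0.124), the one gene of the 20 that did not pass the adjusted p there.

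Ratios of 2 genes within a library do not depend on scaling or depth, so the copies were also set against each other. Pairs were taken by a coding identity above 85%, and with 3 libraries against 3 the smallest p an exact test allows is 0.1, so ratios are given without a test. Adam26b stood at 0.358, 0.364 and 0.367 of Adam26a in input and at 0.293, 0.357 and 0.329 in IgG, but at 0.719, 0.747 and 0.681 in acRIP. The acRIP ratios lay above all ratios of both other groups. Against Adam34, the other neighbour, Adam26b went from 0.822 ± 0.0335 in input and 0.869 ± 0.0305 in IgG to 2.17 ± 0.463 in acRIP. Adam20 went the same way against Adam39 and Adam25, each 91.4% identical to it. Its ratio to Adam39 was 1.03 ± 0.0504 in input, 0.634 ± 0.0361 in IgG and 1.19 ± 0.0705 in acRIP, and its ratio to Adam25 was 0.932 ± 0.0406, 0.661 ± 0.0553 and 1.25 ± 0.0883. Adam20 was the lowest of the 3 in every IgG library and the highest in every acRIP library. The ratio of Adam39 to Adam25 was 0.905 ± 0.0305 in input, 1.04 ± 0.0474 in IgG and 1.05 ± 0.0758 in acRIP. Adam6b stood at 0.611 ± 0.0116 of Adam6a in input, above all ratios of the precipitated groups, which were 0.487 ± 0.0227 in IgG and 0.465 ± 0.0208 in acRIP and overlapped each other. Adam1b stood at 2.08 ± 0.111 times Adam1a in input, 3.10 ± 0.377 times in IgG and 3.69 ± 0.514 times in acRIP, where the last 2 groups overlapped and Adam1a carries the limit of shared exons.

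**Figure D3:**
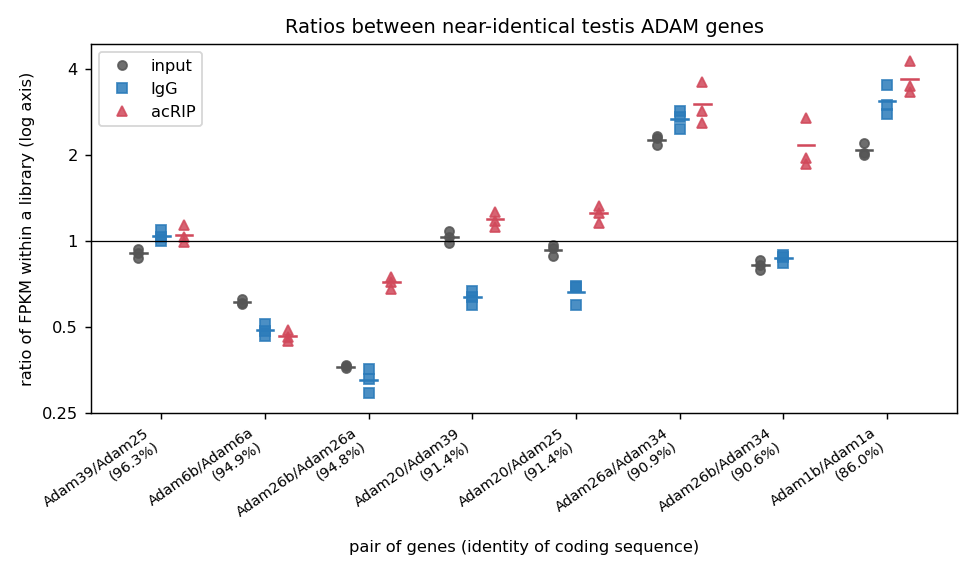
Ratio of FPKM between 2 near-identical testis ADAM genes within each library (log axis), for the 8 pairs with a coding identity above 85%; symbols are libraries and bars group means. Ratios that involve Adam26b or Adam20 are higher in each acRIP library than in any IgG library, while Adam39 to Adam25, Adam6b to Adam6a, Adam26a to Adam34 and Adam1b to Adam1a overlap between these groups.

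The same ratio separated the abundant genes. Adam2 stood at 0.789 ± 0.0256 of Adam3 in input, at 1.31 ± 0.059 in IgG and at 1.49 ± 0.0566 in acRIP, so that their order turned between input and both precipitated groups. Adam32 went from 0.765 ± 0.00369 of Adam3 to 1.08 ± 0.00788 in IgG and 1.14 ± 0.0689 in acRIP. Adam5 went from 1.36 ± 0.0185 of Adam3 to 1.79 ± 0.0333 and 1.64 ± 0.0738. Of these 4 genes Adam3 had the lowest log2 fold change against input with both kinds of bead.

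The sheddases spread much more widely than the sperm genes. Of 8, 6 were tested. Against IgG, 1 was called higher (Adam8) and 2 lower (Adam17 and Adam12), beside 11.5% and 20.9% of all genes tested. Against input 1 was called higher (Adam8) and 3 lower (Adam17, Adam12 and Adam9), beside 17.7% and 22.8%. A call in the same direction against both groups was made for 1 member upwards, Adam8, and for 2 downwards, Adam12 and Adam17. Among all genes tested, 7.87% were called higher against both and 17.0% lower against both. By the methods, an ac4C-bearing transcript had to pass both comparisons with fold thresholds of 2 and 5, and 0 members were more than 5-fold higher in acRIP than in either group. The paper also describes a moderately acetylated class, and places most of its ac4C-bearing testis genes in it. For HEK293T cells, it gives this class as more than 2-fold over both groups with 1 added to FPKM. With log2(FPKM + 1) in place of counts, 0 members were called higher against both groups here. For Adam8 this scale could not give a call. Its means were 0.74 FPKM in input, 0.59 in IgG and 1.51 in acRIP, which differ by less than 2-fold once 1 is added.

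Adam8 encodes a sheddase best known from leukocytes and osteoclasts. It had 0.543, 0.744 and 0.933 FPKM in input, 0.721, 0.516 and 0.533 FPKM in IgG and 1.16, 1.31 and 2.06 FPKM in acRIP, from 45 to 160 counts in a library. Every acRIP library was above all others, and input and IgG overlapped. The log2 fold change was 1.41 ± 0.27 against IgG (2.65-fold, adjusted p = 2.68e-05) and 1.11 ± 0.26 against input (2.16-fold, adjusted p = 0.000234). The call against input was lost without input replicate 1 (0.93) and without acRIP replicate 3 (0.84), where the fold fell under 2. Macrophage markers, 5 genes, went the other way as a sum, with 5.56 to 6.86 FPKM in input, 5.53 to 7.91 in IgG and 1.1 to 1.91 in acRIP. Cd68, Csf1r and Cd163 were called lower against both groups, and Cd163 had 0 counts in acRIP and only 0 to 6 in IgG. Adgre1 was called lower against input only. Cx3cr1 was called in neither comparison (log2 fold change 0.09 ± 0.25 against IgG and -0.42 ± 0.24 against input). Endothelial markers, 5 genes, summed to 1.9 to 2.4 FPKM in input, 1.41 to 1.96 in IgG and 5.35 to 6.82 in acRIP, with Cdh5, Tek and Emcn called higher and Pecam1 lower against both groups. Such calls were made for 7.87% of all genes tested upwards and for 17.0% downwards. The groups are fractions of extracted RNA, so these sums do not measure cell content. The relation of either list to the Adam8 value was not tested.

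Adam17 was the clearest of the depleted sheddases. It had 2.43, 2.23 and 2.58 FPKM in input, 1.7, 1.74 and 1.35 FPKM in IgG and 0.645, 0.54 and 0.417 FPKM in acRIP. The 3 groups did not overlap. Its log2 fold change was -1.53 ± 0.18 against IgG (adjusted p = 3.8e-09) and -2.10 ± 0.17 against input (adjusted p = 2.22e-13), and its level was 4.28-fold lower than in input. Adam10, the sheddase most related in function, did not share this. It had 4.31, 4.02 and 2.79 FPKM in IgG and 2.51, 2.66 and 2.5 FPKM in acRIP, a log2 fold change of -0.48 ± 0.15 (adjusted p = 0.00543), and -0.17 ± 0.15 against input (adjusted p = 0.308). Adam9, the sheddase next to the sperm gene block on chromosome 8, had 2.88 ± 0.237 FPKM in input, 2.21 ± 0.144 in IgG and 1.19 ± 0.269 in acRIP. Its log2 fold change was -1.19 ± 0.18 against input (adjusted p = 4.19e-07) and -0.84 ± 0.19 against IgG (adjusted p = 0.000196), under 2-fold. Adam15 had 0.846 ± 0.0455, 0.745 ± 0.0481 and 0.643 ± 0.0485 FPKM and passed no test.

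Adam12, a sheddase of muscle and connective tissue, was near the limit of detection. It had 20, 19 and 36 counts in input, 32, 10 and 26 in IgG and 4, 6 and 2 in acRIP. All acRIP libraries were below all others. The log2 fold change was -2.46 ± 0.69 against IgG (adjusted p = 0.00202) and -2.04 ± 0.68 against input (adjusted p = 0.00786). Without input replicate 3 the call against input was lost (log2 fold change -1.57, adjusted p = 0.0677), and with only the 6 libraries compared it did not pass the filter against IgG and was not tested. Adam33 and Adam19 were not tested and had 0 counts in the 3 acRIP libraries. Fewer genes of any kind had counts in acRIP, 22206 to 22402 in a library. In IgG there were 26204 to 26874 and in input 28552 to 29642. Adam33 had 26, 16 and 8 counts in input, at least 3.64-fold higher than acRIP against a floor of 3 counts in each library, or 1.82-fold if 3 read pairs, 6 counts, are taken as the floor. Adam19 had 11, 24 and 18 counts in input, at least 4.27-fold higher by the first floor and 2.14-fold by the second. In IgG, Adam33 had 6, 8 and 6 counts, at least 2.2-fold higher than acRIP by the first floor and 1.1-fold by the second. Adam19 had 6, 4 and 0 counts in IgG.

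Of the 3 LGI-binding and neural members, Adam11 and Adam22 were called lower in IgG than in input and Adam23 higher. Among all genes tested, 7.19% were called lower and 13.4% higher in that comparison. These 3 calls were lost when the test was against a 2-fold change. In acRIP against IgG, Adam11 and Adam22 were called higher, beside 11.5% of all genes tested. Counts were low, from 18 to 28 for Adam22 in IgG and from 26 to 40 for Adam23 in input. Adam11 had 1.36, 0.977 and 1.11 FPKM in input, 0.53, 0.676 and 0.323 FPKM in IgG and 0.958, 1.32 and 1.17 FPKM in acRIP. Only IgG stood apart, and input and acRIP overlapped. Its log2 fold change was 1.23 ± 0.25 against IgG (adjusted p = 5.96e-05) and 0.08 ± 0.23 against input (adjusted p = 0.778), a value whose sign changed under other scalings. Without IgG replicate 3 its fold over IgG fell under 2 (log2 fold change 0.97). Adam22, the receptor of LGI1 at synapses, had 0.338, 0.259 and 0.192 FPKM in input, 0.0856, 0.104 and 0.101 FPKM in IgG and 0.248, 0.322 and 0.27 FPKM in acRIP, again with IgG apart and the others overlapping. Its log2 fold change was 1.57 ± 0.31 against IgG (adjusted p = 4.32e-05) and 0.16 ± 0.28 against input (adjusted p = 0.613). Adam23 had 0.0709 ± 0.00479 FPKM in input and 0.192 ± 0.0697 in IgG (log2 fold change 1.45 ± 0.36, adjusted p = 0.000815), and 0.118 ± 0.0331 FPKM in acRIP.

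**Figure D4:**
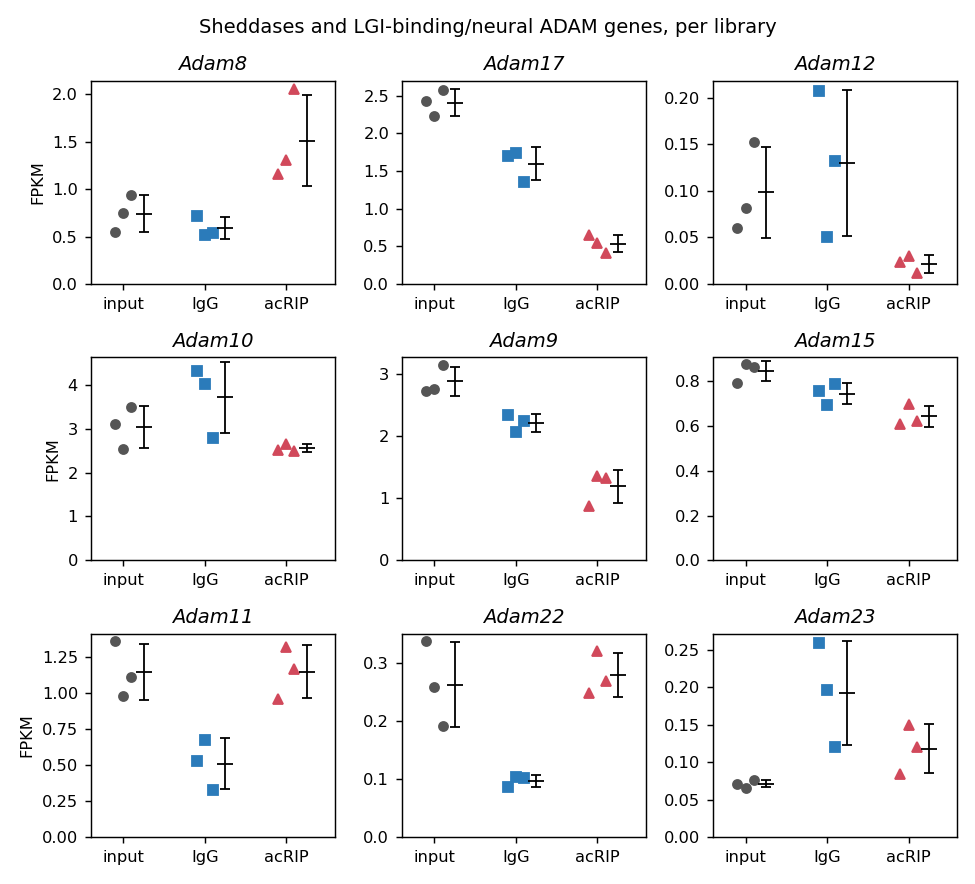
FPKM of the 6 sheddases tested and the 3 LGI-binding or neural members in each input, IgG and acRIP library (symbols), with the mean and SD over 3 libraries beside them; each panel has its own axis from 0. Adam8 is above both other groups in acRIP, Adam17, Adam12 and Adam9 are below both, and Adam11 and Adam22 are low in IgG only.

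Partners of the sheddases moved in both directions. Of 16 regulators and inhibitors, 15 were tested, and 2 were called lower in acRIP than in both other groups, beside 17.0% of all genes tested. These were Tspan14, a tetraspanin that escorts ADAM10 (1.73 ± 0.108 FPKM in input, 2.25 ± 0.0576 in IgG and 0.416 ± 0.229 in acRIP), and Timp3, the tissue inhibitor that binds ADAM17 (1.78 ± 0.124, 1.07 ± 0.051 and 0.0376 ± 0.0366 FPKM). Their log2 fold changes against IgG were -2.39 ± 0.31 for Tspan14 (adjusted p = 2.05e-08) and -4.74 ± 0.33 for Timp3 (adjusted p = 9.99e-15). Against input, 5 regulators were called higher and 2 lower, beside 17.7% and 22.8% of all genes tested. The higher ones included Timp2 (log2 fold change 1.24 ± 0.06) and Furin (1.58 ± 0.22), the convertase that removes ADAM prodomains, both with IgG at a like level. Of 17 ligands and substrates, 13 were tested, with Notch2, Cdh1 (0 in IgG) and Hbegf called higher against both groups and Lgi4 (0 in acRIP) lower. Among all genes tested, 7.87% were called higher and 17.0% lower against both groups. Notch2, a substrate of ADAM10, had 0.41 ± 0.0711 FPKM in input, 0.412 ± 0.129 in IgG and 0.989 ± 0.13 in acRIP (log2 fold change against IgG 1.30 ± 0.22, adjusted p = 3.43e-06).

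The secreted ADAMTS proteases, relatives left out by the naming rule, had calls in both directions. Of 19 in the table, 12 were tested, and 5 were called lower against both groups (Adamts1, Adamts3, Adamts6, Adamts16 and Adamts20) and 1 higher (Adamts15), beside 17.0% and 7.87% of all genes tested. Adamts3, Adamts6 and Adamts16 had 0 counts in all acRIP libraries. Adamts15 had 0 counts in IgG, 2 to 20 in input and 64 to 104 in acRIP. Adamts3 had 28 to 48 counts in input and 2 to 10 in IgG. The low-count filter kept each of these 2 genes through the group where it was high. Adamts1 had 0.431 ± 0.0497 FPKM in input, 0.407 ± 0.152 in IgG and 0.0869 ± 0.0387 in acRIP.

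Features that the members share or lack were set against their values without a test. The 17 tested members with the zinc signature had a median log2 fold change of -0.42 in acRIP against IgG and the 12 without it -0.36. Against input the medians were -1.06 and -1.04. Among the 20 sperm surface and testase genes, the 15 with a single coding exon had a median of -1.13 against input and the 5 with several coding exons -1.11. Across the 29 genes tested, Spearman's rho between the log2 fold change against IgG and the cytidine content of the coding sequence was 0.17, that with GC content 0.21, with gene length 0.04 and with input level 0.02. For the log2 fold change against input the same 4 values were 0.30, 0.36, 0.18 and -0.37. Within the 20 sperm surface and testase genes, GC content had 0.37 against IgG and 0.29 against input. These correlations are across genes that share libraries and, in part, ancestry, and they are given as a description.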

How the data were processed

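The authors deposited counts, per gene and library, of uniquely mapped reads (Trim Galore 0.6.7, STAR 2.7.10a on mm10, featureCounts 2.0.2, per the submitters' processing notes), without normalization. The annotation release, strand setting and counting of reads or pairs are not given in the sources used here. Gene names came from GENCODE vM21: 55141 of 55401 identifiers matched, and the coordinates of all 33 members were the same. FPKM were computed here from the deposited counts, gene length and total count.

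Counts of all 9 libraries were fitted together with edgeR 4.0.16 (R 4.3.3): filterByExpr, TMM, robust quasi-likelihood test, Benjamini-Hochberg adjustment over 22510 genes. DESeq2 1.42.0 (the authors' tool), limma 3.58.1 on log2(FPKM + 1) and log2(FPKM + 0.1), other scalings and filters, a replicate block and leaving out libraries were alternatives. Values per library are given for Adam1a, Adam1b, Adam2, Adam3, Adam10, Adam17, the 6 members highest in input, those called higher than both groups and those called between acRIP and IgG (at most 6 in each direction). Other members named with values were chosen after these were seen. Members and lists were chosen with earlier results of these data known. Intervals and floors cover counting error only. Adam34l, Adam36, Adam37 and Adam38 were not analysed here.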

Additional observations from a re-analysis of the deposited data

How the results depend on the processing

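The direction of the ADAM shift held under the alternatives run, and its size depended on the genes it was set against. The median of members minus the median of all genes tested was -0.33 in acRIP against IgG, and it was -0.36 with DESeq2, without a filter on low counts and with halved counts, -0.35 with only the 6 libraries compared and -0.26 on log2(FPKM + 1). In acRIP against input it was -0.96, with -0.67 under DESeq2, -0.62 without a filter, and -1.0 with only the 6 libraries compared or halved counts. In IgG against input it was -0.68, and -0.61 with DESeq2, without a filter and on log2(FPKM + 1). The median of all genes in acRIP against input was -0.38 with DESeq2 and -0.44 without a filter, where more genes enter, in place of -0.10. Leaving out 1 library gave -0.32 to -0.26, -1.01 to -0.89 and -0.75 to -0.65 in these comparisons.

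Counts of called ADAM genes were small and moved with the threshold. In acRIP against IgG, 2 were lower, with 4 under DESeq2 and without a filter (Adam19 and Adam33 were gained), 1 with only the 6 libraries compared or log2(FPKM + 0.1), and 0 on log2(FPKM + 1). The 3 higher ones became 1 when the test was against a 2-fold change and 0 on log2(FPKM + 1). The 2 lower against both groups became 4 with DESeq2 and without a filter, 1 with only the 6 libraries compared, against a 2-fold change or on log2(FPKM + 0.1), and 0 on log2(FPKM + 1). The call of Adam8 higher against both groups and against input, and that of Adam23 in IgG against input, went to 0 against a 2-fold change and on both log2 FPKM scales. Against a 2-fold change, the 8 lower in IgG than in input became 5 and the 17 lower in acRIP than in input became 12 (Adam9, Adam12, Adam21, Adam30 and Adam39 were lost). Adam39 was also lost with DESeq2, with its size factors in edgeR and with halved counts. Leaving out 1 library gave 2 to 4 lower and 2 to 3 higher against IgG, 15 to 20 lower and 0 to 2 higher against input, 7 to 9 lower and 1 to 1 higher for IgG against input, and 2 to 4 lower and 0 to 1 higher against both. The cause of these moves was not tested.

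Values near 0 changed sign. Adam11 in acRIP against input was -0.0049 with library totals, -0.00015 on log2(FPKM + 1), -3.3e-05 on log2(FPKM + 0.1) and -0.04 to 0.23 with 1 library left out. Adam22 ranged from -0.01 to 0.40 in the same way and Adam12 in IgG against input from -0.05 to 0.89. Summed ADAM levels were 1550 FPKM in IgG and 1300 FPKM in acRIP when ribosomal and mitochondrial loci were left out of the total, and 1420 to 1460, 1110 to 1180 and, for input, 2570 to 2680 FPKM with 1 library left out. Deviations of libraries with the same replicate number correlated at -0.01 to 0.04. Values this near 0 cannot tell whether such libraries came from the same RNA, which the sources do not state. With the number as a replicate block the medians differed by -0.33, -0.96 and -0.68 and no ADAM gene gained or lost a call.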
